A study of Mus musculus with 36 samples.

Results

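The regions described here are the stretches of open chromatin that hematopoietic stem cells (HSCs) shared with all 4 kinds of multipotent progenitor (MPP1 to MPP4) and that no library of the oligopotent progenitors showed. The members were selected on peak calls alone. Peaks from the 36 libraries were joined wherever they shared 1 bp or more, which gave a catalogue of 105005 regions, and a region was kept when it was called in at least 2 libraries of each of HSC, MPP1, MPP2, MPP3 and MPP4 and in 0 of the 12 libraries of GMPs (progenitors of granulocytes and macrophages), MEPs (progenitors of megakaryocytes and erythrocytes) and CLPs (lymphoid progenitors). This gave 755 regions, 0.719% of the catalogue. They were 3.17% of the 23782 regions that met the HSC and MPP requirement alone. The other 23027 of those, called in at least 1 oligopotent library, serve below as the comparison regions.

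HSCs sit at the top of blood formation and can both renew themselves and give rise to every blood lineage. MPPs keep multilineage output but have lost long-term self-renewal, and they lean towards the megakaryocyte and erythroid (MPP2), myeloid (MPP3) or lymphoid (MPP4) side. Open chromatin away from gene starts often marks enhancers, short stretches at which transcription factors bind, and the set of open enhancers is known to change as cells commit to a lineage.

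Accessibility was measured by ATAC-seq, in which a transposase cuts open chromatin and tags it for sequencing, on 20000 sorted bone marrow cells per library from female C57BL/6 mice, for which the labels name no engineered allele or treatment. Young mice were 10 weeks and aged mice 20 months old, with 4 HSC libraries per age and 2 libraries per age of every other fraction. All HSC and MPP gates were Lin-, Sca-1+ and c-Kit+. HSCs were CD34- CD150+ CD48- Flt3-, MPP1 differed by CD34+, MPP2 was CD34+ CD150+ CD48+, MPP3 was CD34+ CD150- CD48+, and MPP4 was like MPP3 but Flt3+. GMPs, MEPs and CLPs were sorted by c-Kit with FcγR and CD34, or by IL-7 receptor. Marrow was described as pooled within an age before sorting, so replicate libraries may share animals, and p-values measure the spread between these libraries, which may be technical. At the promoters of genes that mark these gates, a region within 500 bp of the start of Kit was called in all 24 HSC and MPP libraries, as was one at Flt3 and one at Cd34, the last 2 also in the fractions sorted as negative for Flt3 or CD34. The promoter of Cd48 was called in 0 HSC and 0 MPP1 libraries, and in 4 MPP2, 2 of 4 MPP3 and 4 MPP4 libraries. Ly6a, which encodes Sca-1, had a promoter region in only 1 HSC and 1 MPP3 library, and Slamf1, which encodes CD150, had none.

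HSC and MPP libraries held 27087 to 40157 peaks, CLP libraries 27117 to 34205, GMP libraries 52576 to 63288 and MEP libraries only 9581 to 11041, so absence from MEPs was the weakest of the requirements. Of the regions that met the HSC and MPP requirement, 22234 were called in a GMP library, 21085 in a CLP library and 10385 in an MEP library. Leaving the MEP libraries out of the rule gave 815 regions. Peak names in 7 of the 12 aged HSC and MPP libraries and in 0 of the 12 young ones include the word "new", which no label explains. These 7 were aged HSC, MPP1 and MPP2 replicate 2 and both aged libraries of MPP3 and of MPP4. In the oligopotent fractions the word was in replicate 2 of young and aged MEP and CLP. In MPP3 and MPP4 the word cannot be told apart from age, and values without these libraries are given beside the main comparisons.

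The windows below show 200 bp around the summit of 6 regions, from the reference genome (mm10, forward strand, 5′ to 3′). Capitals mark the letters of 6 motif words: AP-1 (TGANTCA), PBX-HOX (TGATTNAT), AGATAA for the GATA factors, ETS (AGGAAGT), MEIS (TGACAG) and RUNX (TGTGGTT), on either strand. The Schip1 window (chr3:68508707-68508906) is from the region whose weakest library was, after subtracting library medians, the strongest of all shared regions and holds an AP-1 word. The Morf4l1 window (chr9:90084929-90085128) is from the region with the smallest adjusted p between MPP4 and HSC, and the Bcl11a window (chr11:24139577-24139776) is from the gene with the most regions among the listed genes. The Meis1 (chr11:19112308-19112507), Prdm11 (chr2:93030085-93030284) and Diaph3 (chr14:86646750-86646949) windows were chosen after their values were seen, to show an AP-1 word beside a MEIS word, an AP-1 word inside a PBX-HOX word, and a window with PBX-HOX, GATA, ETS and RUNX words together.
Schip1: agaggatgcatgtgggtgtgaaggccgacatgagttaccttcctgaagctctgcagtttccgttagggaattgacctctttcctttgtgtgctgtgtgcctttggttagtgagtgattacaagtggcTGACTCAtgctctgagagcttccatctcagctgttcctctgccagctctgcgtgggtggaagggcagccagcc
Morf4l1: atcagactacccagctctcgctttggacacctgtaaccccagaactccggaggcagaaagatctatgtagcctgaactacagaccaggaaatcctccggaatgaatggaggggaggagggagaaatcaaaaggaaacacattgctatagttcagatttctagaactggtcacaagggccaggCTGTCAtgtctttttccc
Bcl11a: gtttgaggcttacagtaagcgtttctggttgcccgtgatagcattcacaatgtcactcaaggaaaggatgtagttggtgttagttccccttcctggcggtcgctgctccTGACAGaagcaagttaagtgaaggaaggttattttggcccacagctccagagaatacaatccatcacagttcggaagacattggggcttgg
Meis1: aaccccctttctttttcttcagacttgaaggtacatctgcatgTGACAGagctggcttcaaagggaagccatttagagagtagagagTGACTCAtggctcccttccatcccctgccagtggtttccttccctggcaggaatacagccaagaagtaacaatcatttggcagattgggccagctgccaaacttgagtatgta
Prdm11: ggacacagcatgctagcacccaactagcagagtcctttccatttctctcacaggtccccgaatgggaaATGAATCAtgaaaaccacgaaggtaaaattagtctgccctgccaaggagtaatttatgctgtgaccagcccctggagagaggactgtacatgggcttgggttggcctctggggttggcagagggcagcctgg
Diaph3: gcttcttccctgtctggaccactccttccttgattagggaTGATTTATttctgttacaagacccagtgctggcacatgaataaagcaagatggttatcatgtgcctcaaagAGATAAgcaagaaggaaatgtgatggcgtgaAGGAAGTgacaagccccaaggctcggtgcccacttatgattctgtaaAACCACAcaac

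The calls that chose the regions are given as a description. A region was called in a median of 21 of the 24 HSC and MPP libraries (quartiles 18 and 23, lowest 10), and 113 were called in all 24. MPP1 was the most complete fraction, with 651 regions (86.2%) called in all of its 4 libraries, against 469 (62.1%) in MPP2, 337 (44.6%) in MPP3 and 313 (41.5%) in MPP4. All 8 HSC libraries called 385 (51.0%). At the edge of the rule, 386 of the 755 regions had at least 1 fraction at exactly 2 libraries, such as chr1:7146829-7147484 with calls in 7 HSC, 4 MPP1, 2 MPP2, 3 MPP3 and 3 MPP4 libraries and a highest fold enrichment of 11.4. Just outside, 451 regions missed because 1 fraction had exactly 1 library, and that fraction was MPP4 in 226 and MPP3 in 147 of them. An example is chr1:17718461-17718914, called in 8, 4, 3, 1 and 2 libraries in the same order, with a highest fold enrichment of 17.1. A further 429 missed because of exactly 1 oligopotent library, a GMP library in 218, a CLP library in 189 and an MEP library in 22. Of these, chr1:7454939-7455349 reached a fold enrichment of 16.8 in HSCs and MPPs and 7.21 in the 1 GMP library that called it.

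The shared regions lay away from gene starts. Only 34 of 755 (4.50%) had their centre in a promoter, taken as 1000 bp before to 100 bp after the transcription start site (TSS) of a protein-coding gene, against 36.01% of comparison regions and 12.1% of the catalogue. The share was 6.43% in near misses of the rule, with 1 fraction at 1 library, and 11.6% in comparison regions called in only 1 to 3 oligopotent libraries, where the median GC content was 48.5% and 51%. Introns held 355 (47.0%), exons 24 (3.18%) and intergenic sequence 341 (45.2%), and 1 region on an unplaced contig had no annotation. The median distance to the nearest TSS was 35608.5 bp (quartiles 11381.8 and 94783.8 bp), against 2695 bp for comparison regions and 18703 bp for the catalogue. More than 50 kb from any TSS were 309 (41.0%), against 16.6% and 27.7%. Their width had a median of 520 bp, against 629 bp and 336 bp, and their GC content a median of 49%, against 57% and 50%. The few promoters included those of Sgk1, a stress-induced kinase (9 young and 3 aged calls), Stab1, a scavenger receptor (12 and 11), Srxn1, which restores oxidised peroxiredoxins (9 and 10), and the neuronal receptor gene Robo2 (10 and 11). These 4 were chosen after their values were seen.

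The regions were spread over many genes. They had 692 genes as their nearest TSS, which need not be the genes they act on, and 640 of these had a single region. Only 8 genes had 3 or more, 26 regions in all. Bcl11a, a zinc-finger repressor needed for lymphoid development, and Pde4d, a cAMP phosphodiesterase, had 4 each. The 4 at Bcl11a were among 9 regions near it that met the HSC and MPP requirement and 58 in the catalogue, whereas those at Pde4d were among 23. The genes with 3 were Asap1, an ARF GTPase-activating protein, Diaph3, a formin that nucleates actin, the growth factor gene Fgf1, Ghitm, a mitochondrial membrane protein, Hao1, a peroxisomal oxidase, and Hivep3, a zinc-finger protein. At Fgf1 all 3 of the regions that met the HSC and MPP requirement were shared regions, and at Hao1 and Hivep3 3 of 5 were. Acvr2a, an activin receptor, and Arhgap6, a GTPase-activating protein, had 2 each. Within 50 kb of another shared region lay 66 (8.74%), in 32 runs. The runs with 3 regions were at Fgf1 and in an intron of Hivep3 (chr4:119887592-119912000, 24.4 kb). Among the runs of 2, the first in genome order were at chr1:44158164-44199114 (Ercc5 and Mettl21e), chr2:48328183-48374848 (Acvr2a) and chr2:134067932-134078356 (Hao1).

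Lists of genes of blood biology, chosen with earlier results of these data known, were set beside the regions. Of 33 stem cell factor genes, 5 had a shared region each, among them Meis1, Mycn, Nr4a2 and Zbtb20. That was 5 of the 130 regions near these genes that met the HSC and MPP requirement (3.85%), against 3.17% overall. Of 12 niche and adhesion genes, Itgb1, Cd44 and Alcam had 1 each (6.98% of 43). All 4 lymphoid regions were those of Bcl11a (12.1% of 33). There was 1 region each for 22 receptor and surface genes (Notch2, 1.85% of 54), 17 granulocyte and macrophage genes (Irf8, 4.55% of 22) and 16 genes of HSC ageing (Plscr2, 5.26% of 19). There were 0 for 16 cycle and quiescence genes, which had 52 regions that met the HSC and MPP requirement, and 0 for 15 erythroid and megakaryocyte genes, which had 12.

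The region nearest to Meis1, a homeobox cofactor that HSCs need, lay 93.4 kb upstream of its TSS (chr11:19112162-19112655). Fold enrichment over local background, as the peak caller gave it, was 11.1, 12.8, 7.96 and 9.61 in young HSCs and 14, 10.5, 6.42 and 4.12 in aged HSCs. MPP1 read 13.3 and 9.56 in young and 12.3 and 6.86 in aged mice, and MPP2 10.2 and 5.87 in young and 10.1 and 6.27 in aged mice, where replicate 2 of each aged fraction carries the word "new". Fold enrichment was 11.2 and 7.39 in young MPP3 and 10 and 9.11 in young MPP4, and the region was not called in any of the 4 aged MPP3 and MPP4 libraries, all of which carry the word "new". The region nearest to Mycn had 10 young and 4 aged calls, with 0 calls in the 4 aged HSC libraries. Nr4a2 and Zbtb20, a nuclear receptor gene and a zinc-finger gene, had 9 and 9, and 11 and 11 calls.

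The regions of the 3 adhesion genes are given as values. Near Itgb1, which encodes integrin β1 (chr8:128663101-128663495), fold enrichment was 19.8, 22.4, 14.7 and 15.4 in young HSCs, 22, 16.1, 19.9 and 17.3 in aged HSCs, and 15.2 to 17.8 in MPP1. The MPP2 libraries read 11.9 and 11.7 in young and 7.29 and 8.36 in aged mice, and the MPP3 and MPP4 libraries that called it read 7.74 to 10.6, with no call in aged replicate 2 of either, so none of these reached the lowest HSC value. Upstream of Cd44, the hyaluronan receptor gene (chr2:102975454-102975975), HSCs had the fewest calls. Of the young HSC libraries, 3 read 7.86, 5.76 and 5.35, the other young and all 4 aged HSC libraries had no call, and the MPP2 libraries read 11.7 and 9.39 in young and 16.1 and 10.4 in aged mice. The MPP1 libraries read 6.24 to 9.40, MPP3 9.86 and 12 in young and 7.21 and 10.4 in aged mice, and MPP4 11.6 and 10.8 in young and 7.62 and 7.67 in aged mice, so MPP1 and aged MPP3 and MPP4 overlapped the HSC values and MPP2 did not. In an intron of Alcam, a cell adhesion molecule gene (chr16:52438137-52438629), means over the libraries that called it were 8.85 for HSCs, 11.1 for MPP1, 9.92 for MPP2, 8.79 for MPP3 and 10.2 for MPP4. None of these regions was called in all 24 libraries, so none was tested. In Plscr2, a phospholipid scramblase gene, an intronic region close to the TSS was called in 11 young and 10 aged libraries.

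At the regions called in all 24 libraries, the shared regions stood above the typical open region in HSC and MPP1 and below it in MPP3 and MPP4. Strength was taken as log2 fold enrichment minus the library's median over the 13465 regions called in all 24, of which the 113 are part. All but the 113 were called in at least 1 GMP, MEP or CLP library, and 5335 in all 36 libraries. This reference was therefore not selected like the shared regions, and the part of the selection in the differences between fractions was not tested. The median of the 113 was 0.17 ± 0.11 (SD, n = 8 libraries) in HSCs, 0.25 ± 0.07 for MPP1, 0.07 ± 0.14 for MPP2, -0.21 ± 0.19 for MPP3 and -0.36 ± 0.17 for MPP4 (n = 4 each). In sorted bulk samples, fewer open cells and weaker opening per cell cannot be told apart. The lowest HSC library was at -0.01 and the highest MPP4 library at -0.12, so the HSC and MPP4 libraries did not overlap. The MPP1 libraries (0.16 to 0.33) overlapped the HSC libraries (-0.01 to 0.28), as did MPP2 (-0.14 to 0.17) and, through young MPP3 replicate 1 at 0.08, MPP3 (-0.33 to 0.08). As a place among all regions of the same library, the median of the 113 was at percentile 62.4 for HSCs, 68.6 for MPP1, 55.0 for MPP2, 36.03 for MPP3 and 26.4 for MPP4. The difference between MPP4 and HSC was -0.53 and stayed between -0.61 and -0.49 when each library was left out. It was -0.61 with HSC replicates 1 and 2 only, -0.45 with replicates 3 and 4 only, and -0.42 without the libraries that carry the word "new", where both MPP4 libraries are young. The difference between MPP2 and HSC in the same medians was -0.10 and became -0.03 without aged MPP2 replicate 2, and that between MPP1 and HSC was 0.08 and became -0.0019 with HSC replicates 1 and 2 only.

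**Figure D1:**
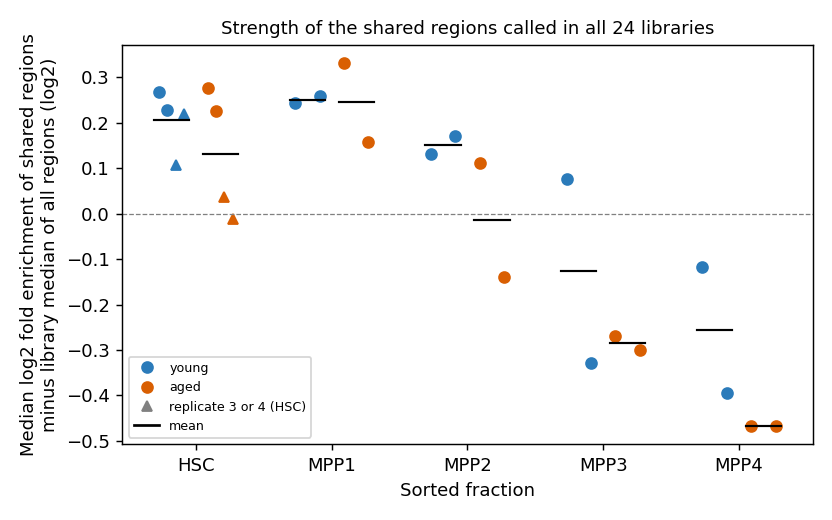
Each point is 1 library, and its height is the median log2 fold enrichment of the 113 shared regions called in all 24 libraries minus that library's median over all 13465 regions (log2 scale). Young libraries are blue, aged orange, HSC replicates 3 and 4 triangles, and black lines are group means. HSC libraries lie between -0.01 and 0.28 and MPP4 libraries between -0.47 and -0.12.

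Region by region, strength was compared with HSCs. The rule had already required calls in every HSC and MPP fraction and none in GMPs, MEPs and CLPs, which does not hold for the other regions tested. The shares below are therefore not independent of the rule, and its part in them was not tested. The 755 less the 113 had no value in some library and were not tested. With limma (fraction and age as terms, Benjamini-Hochberg adjustment over all 13465 regions), 60 of the 113 shared regions (53.1%) were lower in MPP4 than in HSCs, against 8.2% of all regions tested, and 2 were higher, against 6.74%. In MPP3, 40 (35.4%) were lower, against 6.8% of all, and 1 was higher, against 4.95%. In MPP2, 14 (12.4%) were lower, against 2.36%, and 1 was higher, against 2.19%. In MPP1, 0 were lower, against 0.0297% of all, and 1 was higher, against 0.052%. At an unadjusted p under 0.05 by limma, 2 of the 113 (1.77%) were lower in MPP1, against 5.66% of all. The median difference of the 113 on the log2 scale was 0.08 (MPP1), -0.10 (MPP2), -0.36 (MPP3) and -0.49 (MPP4), the last a ratio of 0.712 to HSCs. The median of all regions was between -0.01 and -0.00 in each, which largely follows from centring each library on these same regions. With the libraries that carry the word "new" left out, the medians of the 113 were 0.10, -0.03, -0.32 and -0.41 in the same order, and the MPP2 estimate was negative at 60 of the 113. Against HSCs, 102 of the 113 (90.3%) had a lower estimate in MPP4, against 50.1% of all, a share that largely follows from the same centring. Every MPP4 library was below every HSC library at 36 of the 113 (31.9%, against 4.19% of all), and every MPP3 library at 26 (23.0%, against 3.42%).

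Without the 7 libraries that carry the word "new", 32 of the 113 (28.3%) were lower in MPP4, against 3.65% of all regions, 9 (7.96%) in MPP3, against 0.728%, and 5 (4.42%) in MPP2, against 0.847%, and 0 were higher in MPP4, against 1.41%. The median difference in MPP4 was then -0.41, and the estimate was negative at 95 of the 113, most of which did not pass. This fit had 17 libraries. By mean level over both ages, MPP1 was the highest fraction for 54 of the 113 regions (47.8%, against 15.2% of all) and HSC for 38 (33.6%, against 23.7%), while MPP4 was the lowest for 69 (61.1%, against 21.3%) and MPP3 for 34 (30.1%, against 21.1%).

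**Figure D2:**
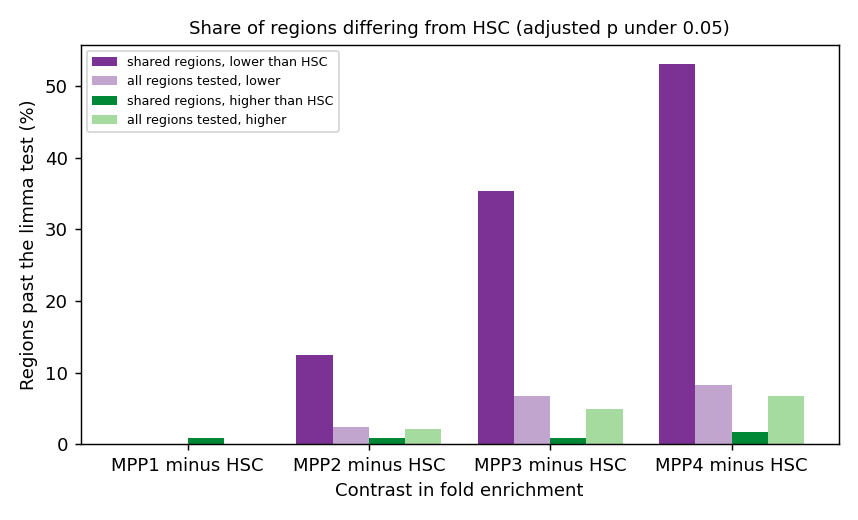
Bars give the percentage of regions past the limma test (adjusted p under 0.05) in each MPP fraction against HSC, in each direction, for the 113 shared regions and for all 13465 regions tested. The share of shared regions lower than in HSCs is 12.4% in MPP2, 35.4% in MPP3 and 53.1% in MPP4, and the share of all regions is at most 8.2%.

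The clearest single region lay 29.7 kb from the TSS of Morf4l1, a chromodomain subunit of histone acetyltransferase and deacetylase complexes (chr9:90084699-90085346, intergenic). Its fold enrichment was 12.5, 12.2, 12.3 and 10.2 in young HSCs and 14.8, 12.6, 16.6 and 13.6 in aged HSCs. It was 11 and 8.62 in young and 14.5 and 11.8 in aged MPP1, and 8.05, 8.23, 10.7 and 9.29 in the young and then aged MPP2 libraries. MPP3 libraries read 6.55, 6.76, 5.79 and 5.81 and MPP4 libraries 4.62, 7.74, 5 and 5.26, all below the lowest HSC library. From HSC to MPP4 it fell by 1.29 ± 0.12 (log2, SE, limma adjusted p = 2.7e-08), and MPP3 fell by 1.12 (adjusted p = 3.7e-06). In MPP1 the difference was -0.26 (adjusted p = 0.396).

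Near Smurf1, a ubiquitin ligase that restrains BMP and TGF-β signalling (chr5:144870659-144871210, intergenic, 94.9 kb from the TSS), HSCs read 23.1, 25.6, 19.4 and 20.7 in young and 15.2, 22.4, 23.1 and 22.6 in aged mice. MPP1 libraries stayed at 19.7 to 21.1, and MPP4 libraries read 10.3 and 10.2 in young and 6.27 and 9.22 in aged mice. The region fell by 1.33 in MPP4 (limma adjusted p = 5.6e-08) and by 0.64 in MPP2 (adjusted p = 0.00353). In an intron of Cpn2, which encodes a carboxypeptidase N subunit (chr16:30265551-30265994), it was 13.2 to 17.9 in HSCs and 5.71, 7.76, 7.41 and 5.36 in MPP4, a fall of 1.34 (adjusted p = 2.3e-07). Near Fam171a1 (chr2:3102393-3102815) the HSC libraries read 17.5 to 21.2 and the MPP4 libraries 11.7, 12, 7.94 and 7.78, which fell by 1.09 (adjusted p = 7.4e-08). In both, every MPP4 library was below every HSC library.

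Of the 4 Bcl11a regions, 2 were called in all 24 libraries and both were lower in MPP4, the fraction that leans to the lymphoid side. The intronic one (chr11:24139356-24139899, 59.0 kb from the TSS) read 14.9, 13.4, 14.9 and 11.8 in young HSCs and 14.1, 9.92, 10.9 and 8.61 in aged HSCs. It read 11.2, 9.93, 13 and 10.1 for MPP1, 9.14, 9.89, 10.4 and 5.58 for MPP2, 7.67, 7.58, 6.73 and 6.76 for MPP3 and 6.56, 5.4, 4.73 and 5.32 for MPP4, young before aged in each. No MPP3 or MPP4 library reached the lowest HSC library, and the fall was 1.21 ± 0.13 in MPP4 (log2, SE, limma adjusted p = 3.9e-07), 0.81 in MPP3 (adjusted p = 0.000321) and 0.52 in MPP2 (adjusted p = 0.0201). The region 146.3 kb from the TSS (chr11:24226631-24227312) read 17 to 21.3 in HSCs and 12.6, 11.8, 7.93 and 13.6 in MPP4, where it fell by 0.80 (adjusted p = 1.2e-05), but its difference in MPP2 was 0.04 (adjusted p = 0.896). A further intronic region (chr11:24162067-24162518) was at 7.77 to 17.3 in HSCs and at 9.36, no call, 5.64 and 6.91 in MPP4, and the last (chr11:24297684-24298184) was at 3.98 to 8.29 wherever it was called.

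Not all regions followed this order. The one nearest to Diaph3 (chr14:86646509-86647244, intergenic, 102 kb from the TSS) was lowest in HSCs. It read 11.2, 10.5, 10 and 10.3 in young and 14.1, 10.2, 10.4 and 7.58 in aged HSCs, and 13 to 18.2 in the MPP libraries, 4 of which were below the highest HSC library. It was higher than in HSCs by 0.57 for MPP1 (limma adjusted p = 0.0417), 0.56 for MPP2 (adjusted p = 0.00436), 0.40 for MPP3 (adjusted p = 0.0222) and 0.46 for MPP4 (adjusted p = 0.0059). With the libraries that carry the word "new" left out, the differences were 0.55, 0.57, 0.38 and 0.43 in the same order, and none passed (limma adjusted p = 0.242, 0.05003, 0.320 and 0.183). The MPP4 call was also lost with the replicate block. In an intron of Etl4 (chr2:20520675-20521121), MPP4 read 14.3, 11.7, 11.6 and 10 and HSCs 5.17 to 11.4, a difference of 0.50 (limma adjusted p = 0.0315). This call was lost when any 1 of 6 libraries was left out, with the replicate block and without the libraries that carry the word "new". The Etl4 call was also lost with centring over regions called in all 36 libraries, with a peak width term and with HSC replicates 1 and 2 only.

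In MPP2, the fraction that leans to megakaryocytes and erythrocytes, the region nearest to Irf8, the transcription factor of monocyte and dendritic cell fate, was among those with the smallest adjusted p against HSCs (chr8:120715259-120715693, 20.9 kb upstream, in an intron of Gm20388). MPP2 read 7.52, 8, 7.29 and 5.75, and HSCs 14.9, 17.2, 16.4 and 12.3 in young and 13, 15, 8.56 and 9.9 in aged mice, with no overlap. It fell by 0.90 in MPP2 (limma adjusted p = 0.00281), whereas MPP4, at 12, 11.5, 9.82 and 11.9, did not pass (-0.27, adjusted p = 0.317). Fanci, a Fanconi anaemia repair gene, had an intronic region (chr7:79397515-79398030) that fell by 0.82 in MPP2 (adjusted p = 0.00223). In MPP3, the regions with the smallest adjusted p beside Morf4l1 were nearest to Hao1 (fell by 0.99, adjusted p = 2.6e-05), Ddx51, an RNA helicase gene (in an intron of Ep400, fell by 0.99, adjusted p = 3.4e-05), Gm43517 (fell by 0.97, adjusted p = 5.1e-05) and Hs3st1, a heparan sulfate sulfotransferase gene (fell by 1.13, adjusted p = 0.000153).

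**Figure D3:**
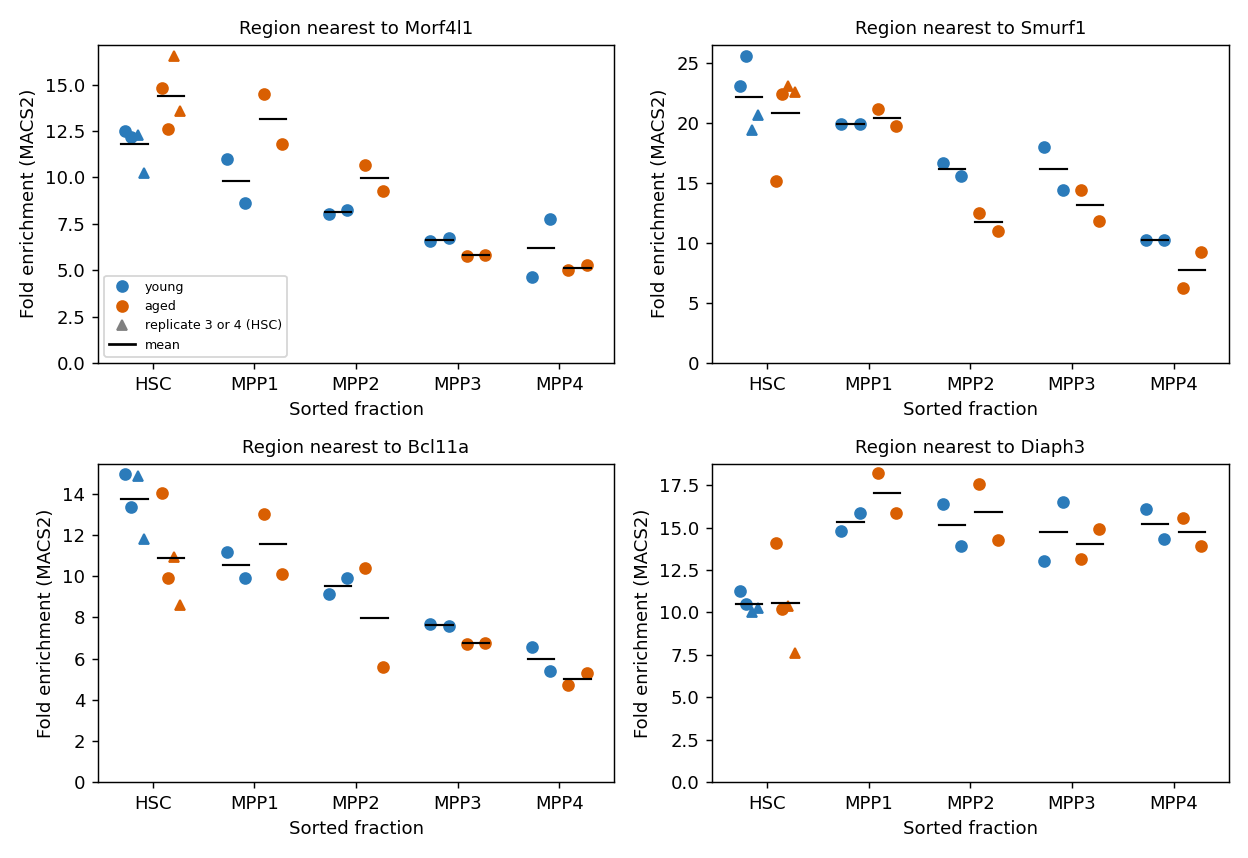
Fold enrichment (peak caller's ratio over local background) in each of the 24 HSC and MPP libraries at the regions nearest to Morf4l1, Smurf1, Bcl11a and Diaph3. Points are libraries, lines are means, and HSC replicates 3 and 4 are triangles. MPP4 libraries are at or below 10.3 at the first 3 regions, and HSC libraries at or above 8.61, while at Diaph3 MPP4 libraries are at 13.9 to 16.1.

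A further set was chosen for its weakest library. The 10 with the highest value of their weakest library, after subtracting library medians, were nearest to Schip1, Fa2h, Mdga2, Slc16a12, Klhl32, Arhgap6, Fstl1, Prdm11, Tmem161b and Dars, and those of Schip1 and Fa2h were above the library median in every library. In an intron of Schip1 (chr3:68508582-68509134), fold enrichment was 13.6 to 24.7 over the 24 libraries with a median of 19.6. It averaged 18.9 ± 4.00 in HSCs (SD, n = 8), 21.9 ± 2.93 for MPP1, 19.8 ± 2.62 for MPP2, 17.2 ± 2.57 for MPP3 and 19.9 ± 3.22 for MPP4 (n = 4 each), so the fractions overlapped. The region nearest to Fa2h (chr8:111449581-111450102, in an exon of Wdr59) read 11.7 to 21.7, and the intronic region of Prdm11 (chr2:93030039-93030430) read 8.50 to 16.2. Dars, a tRNA synthetase gene, had an intronic region (chr1:128398930-128399539) at 15.9 and 16.3 in young MPP4, at 8.47 and 9.11 in aged MPP4, where both libraries carry the word "new", and at 15.9 to 21.4 in HSCs.

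Motif words set the regions apart from the catalogue. Words were searched on both strands in 200 bp around the summit of the 754 regions with sequence, and a match is a description of the letters, not of binding. The AP-1 word, which FOS and JUN proteins bind, was in 259 of 754 (34.4%), against 10.6% of comparison regions, 14.8% of those outside promoters and 11.3% of the catalogue. The form TGAGTCA was in 227 (30.1%, against 8.88% of the catalogue) and TGAATCA in 45 (5.97%, against 2.71%). The PBX-HOX word was in 64 (8.49%), against 1.84%, 2.60% and 2.62%. Its form TGATTCAT contains an AP-1 word, and the other 3 forms were in 48 (6.37%), against 1.74% of the catalogue. GATA was in 123 (16.3%), against 6.32%, 8.61% and 10.2%, and the HOX word TTTATG in 95 (12.6%), against 5.24% of comparison regions and 8.74% of the catalogue. Of the 64 with a PBX-HOX word, 17 also held the HOX word, which can overlap it. ETS and GATA words stood together in 45 (5.97%), against 2.08% of the catalogue.

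Other words were closer to the catalogue or below it, and CRE was in few regions. The MEIS word was in 149 (19.8%), against 16.1% of the catalogue, ETS in 173 (22.9%), against 20.0%, and RUNX in 100 (13.3%), against 11.3%, and outside promoters the comparison regions held ETS in 22.1% and RUNX in 13.7%. The E-box CAGNTG was in 41.1%, against 43.3%, MYB (TAACGG or CAACGG) in 4.38%, against 4.63%, IRF (GAAANNGAA) in 8.62%, against 8.23%, STAT (TTCNNNGAA) in 6.90%, against 5.65%, and CRE (TGACGTCA) in 8 regions (1.06%), against 0.728% of the catalogue and 1.82% of the comparison regions. C/EBP (TTGCNNAA), a factor family of granulocyte and macrophage cells, was in 51 (6.76%), against 13.2% of the catalogue but 7.21% of the comparison regions. CTCF (CNAGNNGGC) was in 8.75%, against 13.7%, PAR bZIP (TTANGTAA) in 1.46%, against 2.32%, NFY (CCAAT) in 19.4%, against 22.3%, and SP/KLF (GGGCGG) in 8.49%, against 14.7%. None of the 17 words was found in 51 regions. AP-1 matches were 39.5 bp from the summit in the median, and 111 of 309 (35.9%) lay within 25 bp. Shares fell in 100 bp windows and AP-1 was then in 22.5% of the shared regions, against 6.50% of comparison regions and 6.81% of the catalogue. In these windows GATA was in 10.6%, against 5.81% of the catalogue, PBX-HOX in 6.23%, against 1.51%, and CRE in 0%, against 0.393%. Near misses of the rule, with 1 fraction at 1 library, held AP-1 in 24.6%, GATA in 20.2%, PBX-HOX in 7.98% and HOX in 10.4%, and comparison regions called in only 1 to 3 oligopotent libraries held AP-1 in 22.1%, GATA in 13.8%, PBX-HOX in 4.58% and HOX in 9.71%.

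**Figure D4:**
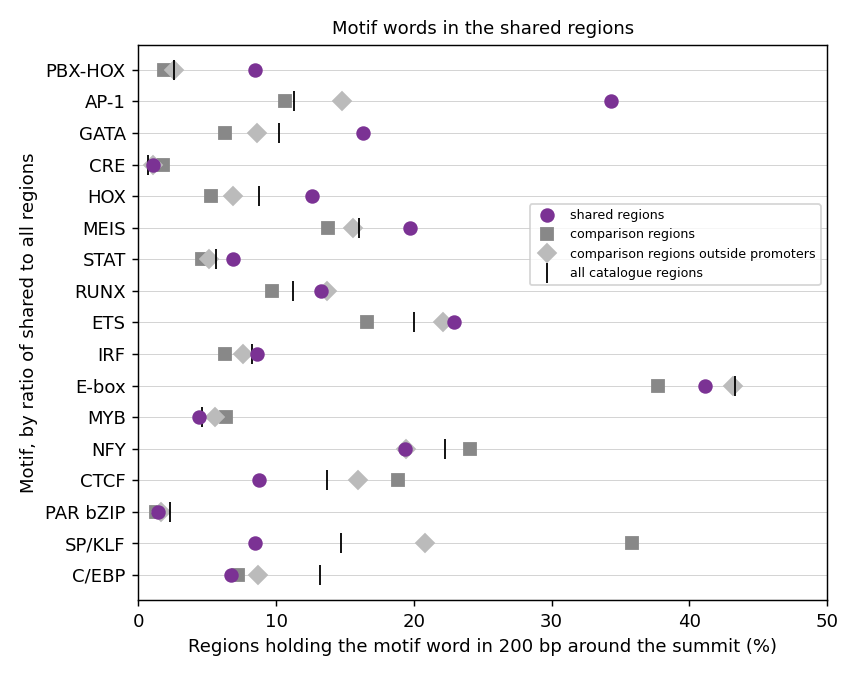
Percentage of regions whose 200 bp around the summit hold each of 17 motif words, for the 754 shared regions with sequence (circles), comparison regions (squares), comparison regions outside promoters (diamonds) and the whole catalogue (ticks). Words are ordered by the ratio of shared to catalogue share. AP-1 is at 34.4% in shared regions, 10.6% in comparison regions and 11.3% in the catalogue, and C/EBP at 6.76%, 7.21% and 13.2%.

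Young and aged libraries were compared by the share of the 755 regions that each called. Young HSC libraries called 94.4%, 95.6%, 69.4% and 83.4% and aged HSC libraries 89.8%, 85.2%, 71.7% and 69.7%, so the ages overlapped, and replicates 3 and 4 were below replicates 1 and 2 at both ages. MPP1 called 94.7% and 96.8% in young and 97.5% and 93.4% in aged mice, and MPP2 called 91.5% and 91.3% in young and 91.9% and 73.6% in aged mice. MPP3 called 94.97% and 83.3% in young but 64.1% and 71.3% in aged mice, without overlap, and MPP4 87.3% and 75.4% against 70.9% and 79.5%, with overlap. The difference between the ages in percentage points was -6.66 for HSCs, -0.33 for MPP1, -8.61 for MPP2, -21.5 for MPP3 and -6.16 for MPP4, and over comparison regions it was -4.76, 0.83, 1.01, -3.81 and -0.65. The HSC value was -12.1 without young HSC replicate 3 and -3.36 without young HSC replicate 2.

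**Figure D5:**
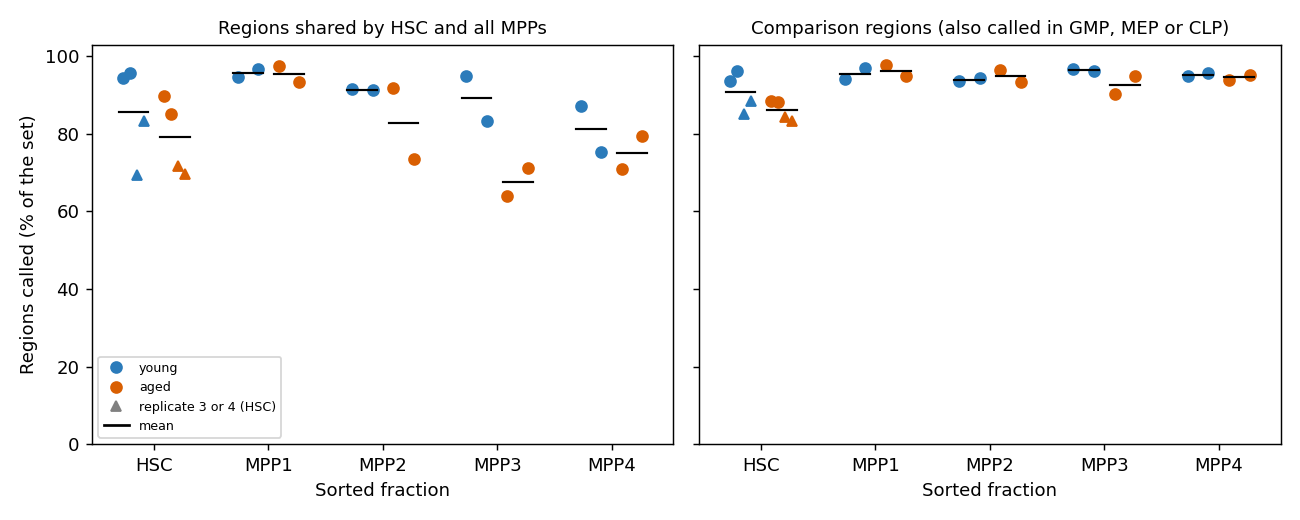
Percentage of the 755 shared regions called in each library, by fraction and age. Points are libraries, lines are means, and HSC replicates 3 and 4 are triangles. Aged MPP3 libraries (64.1% and 71.3%) lie below both young ones (83.3% and 94.97%), and the ages overlap in the other fractions.

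The mean over the 5 fractions was -8.64 points, where single replicate libraries had a pooled SD of 8.95 points, and -7.17 points relative to the comparison regions, where that SD was 6.61 points. Relative to only those comparison regions called in 1 to 3 oligopotent libraries it was -3.97 points. It stayed between -10.5 and -6.81 when each library was left out. Without the libraries that carry the word "new", it was -2.14 points over HSC, MPP1 and MPP2, and -1.94 relative to the comparison regions, since no aged MPP3 or MPP4 library remained. The remaining aged MPP1 and MPP2 libraries called 1.72 and 0.53 points more than the young mean. The 3 remaining aged HSC libraries, replicates 1, 3 and 4, differed by -8.69 points from the mean of all young HSC libraries. Of these fractions only HSC was lower in aged mice, and HSC replicates 3 and 4 were low at both ages. The aged libraries that carry the word differed from the young mean of their fraction by -0.56 points for HSC, -2.38 for MPP1, -17.7 for MPP2, -21.5 for MPP3 (mean of both) and -6.16 for MPP4 (mean of both).

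The rule used these calls without regard to age, so the counts of calls by age over the regions are a description. In a test over the whole catalogue, 0 of the 755 regions were called more or less often in aged libraries at an adjusted p under 0.05 (exact conditional test of calls with fraction as stratum, two-sided), as were 0% of the 18638 regions of the catalogue that could pass. At an unadjusted p under 0.05, 27 of the 257 shared regions that could pass (10.5%) were called less often and 5 (1.95%) more often in aged libraries, against 4.18% and 1.77% of the comparison regions, which met the same HSC and MPP requirement, and 2.99% and 3.28% of the catalogue. Without the libraries that carry the word "new", these were 12 (7.10%) and 2 (1.18%) of 169, against 3.69% and 1.43% of the comparison regions. More calls in young than in aged libraries were found at 410 of 755 (54.3%), against 29.8% of the comparison regions and 33.6% of the catalogue, and fewer at 128 (16.95%), against 21.5% and 33.99%. The ages were equal at 217 of the 755, at 11218 of the 23027 comparison regions and at 34006 of the 105005 catalogue regions. The comparison regions thus had more ties, which lowers both of their shares. Regions nearest to Olfr1507 (chr14:53134728-53135256) and in an intron of Mid1, nearest to Gm21887 (chrX:169996855-169997359), were called in 10 young and 0 aged libraries (exact p = 0.000331, adjusted p = 0.185). The 10 were the same at both, young HSC replicates 1 and 2 and all 8 young MPP libraries, at 5.67 to 10.8 and 4.82 to 8.84, and young HSC replicates 3 and 4 called neither. In the other direction, the region nearest to Plscr4, a phospholipid scramblase gene (chr9:92441423-92441871), was called in all 12 aged libraries, at 5.02 to 11.9, and in 4 young ones at 4.33, 4.88, 6.45 and 6.4 (exact p = 0.00198, adjusted p = 0.402). In an intron of Pik3c2g (chr6:139777794-139778239) there were 10 aged and 2 young calls (adjusted p = 0.552).

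By fold enrichment, 0 of the 113 regions differed between the ages over all fractions (limma, 0.0149% of all regions higher and 0% lower). At an unadjusted p under 0.05, 25 (22.1%) were lower, against 4.88% of all, and 4 were higher, against 5.04% of all. Without the libraries that carry the word "new", 10 (8.85%) were lower at that level, against 4.98% of all. The estimate was negative at 75 of 113 (66.4%, against 48.6% of all), with a median of -0.08, and in the fit without those libraries at 61 of 113, with a median of -0.02. The share over all regions again largely follows from centring each library on them. The smallest adjusted p was in an intron of Foxn3, a forkhead repressor gene (chr12:99406165-99406637), at 14.4, 17.5, 12.6 and 15.8 in young HSCs and 13.3, 11.1, 6.49 and 4.54 in aged HSCs, and at 15.3 and 12.3 in young and 4.88 and 5.91 in aged MPP4. MPP1 read 17.9 and 18.1 against 18.4 and 14.9. MPP2 read 15.8 and 13.7 against 13.1 and 7.45, and MPP3 13.7 and 12 against 10.3 and 5.99. The ages overlapped in HSC and MPP1 and were apart in MPP2, MPP3 and MPP4. The difference was -0.70 ± 0.15 (log2, SE, limma adjusted p = 0.108), and it passed without aged HSC replicate 1 (adjusted p = 0.0352) and without aged MPP3 replicate 1 (adjusted p = 0.0462). Both aged libraries of MPP3 and of MPP4 carry the word "new", and with all libraries that carry it left out the difference was -0.65 (adjusted p = 0.288). Fanci followed at -0.42 (adjusted p = 0.169). Among those higher in aged libraries, the smallest p were nearest to Armc1 (0.38, adjusted p = 0.320) and Hapln1, a hyaluronan link protein gene (chr13:89418757-89419268, 0.37, adjusted p = 0.376), where aged MPP1 and MPP2 replicate 1 read 28 and 23.2 and the other libraries of those fractions read 7.06 to 13.6. Without the libraries that carry the word "new", Hapln1 passed (0.79, adjusted p = 0.0211), and the aged MPP1 and MPP2 libraries left were those at 28 and 23.2. In a fit added after seeing the data, which left out these and kept all other libraries, it was at 0.19 (adjusted p = 0.550). For 0 regions did the age difference differ between HSCs and MPPs by limma, and 7 of the 113 (6.20%) had an unadjusted p under 0.05, against 7.06% of all.

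Regions with an AP-1 word were also set beside those without. Between the ages, the mean difference over fractions was -12.2 points in the 259 with the word and -6.81 points in those without. Comparison regions gave -3.53 and -1.22 points. Without the libraries that carry the word "new", over HSC, MPP1 and MPP2, the shared regions gave -4.97 and -0.67 points and the comparison regions -2.27 and 0.08 points. For HSC this set aged replicates 1, 3 and 4 against all young replicates. With the AP-1 word, the aged MPP1 library left called 96.9%, against 93.8% and 95.8% in young mice. The aged MPP2 library left called 92.3%, against 94.2% and 91.9% in young mice, so the mean of -4.97 rests on HSC. In aged HSCs, libraries called 91.1%, 87.3%, 55.6% and 57.9% of the regions with the word and 89.1%, 84.0%, 80.0% and 75.8% of those without. In young HSCs these were 96.9%, 96.1%, 57.9% and 86.9% with and 93.1%, 95.4%, 75.4% and 81.6% without, so the share with the word was below that without in young replicate 3 and aged replicates 3 and 4. All 4 MPP4 libraries called more with the word (92.3% and 88.0% in young, 74.5% and 80.7% in aged mice) than without (84.6%, 68.7%, 68.9% and 78.8%). From HSC to MPP4, the median difference was -0.28 in the 39 fully called regions with the word and -0.58 in the 74 without, and 12 (30.8%) and 48 (64.9%) of them were called lower in MPP4, against 11.4% and 7.91% of all regions tested with and without the word. These splits are given without a test.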

How the data were processed

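ATAC-seq of 60 bp single reads was run by the authors on 36 libraries of 20000 sorted cells, with fragments of 240 to 360 bp selected. Per the submitters' processing notes and the methods, Bowtie2 placed reads on mm10, reads were subsampled with SAMtools to equal numbers, and peaks were called per library with MACS2 2.2.6, without pooling. The deposited peak lists give a fold enrichment (a ratio over local background), a -log10 p-value, a -log10 q-value, an integer score and the summit offset (another number) computed by MACS2 for the authors. They hold no reads, so depth per sample is known only as equal by design, no count model was run, and the number of peaks limits precision.

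A region was called where a peak of the library overlapped it. Fold enrichment, the highest in the region, was compared with limma 3.58.1 (R 4.3.3) as log2 minus the library median, with no pseudocount, at regions called in all 24 HSC and MPP libraries, and p-values were adjusted over all 13465. Calls were compared with an exact conditional test. No p is given for shares or medians over the regions. Annotation was GENCODE mouse release 21, and coordinates count from 1 on mm10. Sequence was read from RefSeq GRCm38, whose chromosome lengths hold every peak. Scripts (python 3.11.15, numpy 2.4.6, pandas 2.3.3, scipy 1.17.1) were tested on simulated data.

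The regions, gene lists and tests were chosen with earlier results of these data known. Named regions were the 10 with the strongest weakest library, up to 5 per direction of each fit by adjusted p (2 by p where none passed), those of the 10 genes and 5 runs with the most regions, and those of listed genes. Alternatives are given in the closing section, and those with motif windows of 100 bp beside the motifs. The omission of libraries by the word "new", the peak width term, the narrower comparison regions, HSC replicates 3 and 4 alone in the medians, HSC replicates 1 and 2 alone in the limma fits, and the joint omission of aged MPP1 and MPP2 replicate 1 were added after seeing the data. Sequence on chromosome 18 is not shown, and 1 region of a listed gene is not reported here.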

Additional observations from a re-analysis of the deposited data

Results flagged for a closer look

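Young MPP3 replicate 1 stood apart from the other MPP3 libraries in the median strength of the 113 regions called in all 24 libraries, at 0.0755 on the centred log2 scale, with the others between -0.33 and -0.27. At the region nearest to Smurf1, aged MPP1 replicate 1 was at 4.40 in log2 fold enrichment and the other MPP1 libraries between 4.30 and 4.32. Both are single libraries far from the rest of 4 by Dixon's ratio (0.856 and 0.838). Of 86 groups of libraries tested, 2 were marked in this way, and chance marks about 5% of groups.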

How the results depend on the processing

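The rule gave 369 regions when 3 or more libraries of each fraction were required and 1184 when 1 of the 12 oligopotent libraries was allowed, and 544 to 841 when each library was left out. Other settings gave 542 (-log10 q of at least 10) to 890 (a peak covering 50% of the region). The mean age difference in the share called stayed negative in 7 alternatives (-10.95 to -2.14 points) and in all 24 omissions of 1 library. Relative to the comparison regions it was -9.12 to -1.94 points. Regions lower in MPP4 numbered 50 (no centring) to 68 (replicate block), 49 to 62 with each library left out, and 32 without the libraries that carry the word "new". Regions higher in MPP4 numbered 1 with centring over regions called in all 36 libraries, with a peak width term and with HSC replicates 1 and 2 only, 0 with the replicate block and without the libraries that carry the word "new", and 1 to 2 with each library left out, where the 1 was Diaph3. Regions lower in aged libraries numbered 1 (Foxn3) with a variance trend and with a peak width term, and 0 to 1 with each library left out. Regions higher in aged libraries numbered 0 but 1 (Hapln1) without the libraries that carry the word "new", and both numbers were 0 without aged MPP1 and MPP2 replicate 1 together. The causes were not tested.

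The replicate block cannot move the mean age difference, since every number occurs at both ages, and it stayed at -8.64 points. Same-numbered libraries of the 2 ages correlated at -0.09 to 0.19, and not every library correlated best with its own number, so the numbers were not taken as pairs.

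Equal read depth was stated by the study and was not measured here. A region without a call is one that did not reach the caller's limit, and MEP libraries had the fewest peaks. Fold enrichment compares a region with its surroundings in 1 library. The part of peak width, of the word "new" and of HSC replicates 3 and 4 in the differences was not tested beyond the values above.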
